A study of Mus musculus with 18 samples.

Results

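The genes described here are 9 Toll-like receptor genes, Tlr1, Tlr2, Tlr3, Tlr4, Tlr6, Tlr7, Tlr8, Tlr9 and Tlr13, and the gene of their shared adaptor, Myd88. They were chosen by symbol, and these 10 were read from the 23284 RefSeq genes measured in each tumor group. All 10 had reads in every one of the 18 libraries. Toll-like receptors are membrane proteins of the innate immune system that recognise conserved parts of microbes and some molecules set free by dying cells. One set sits at the cell surface and senses lipids and proteins, and another sits in endosomes and senses nucleic acids. Nearly all signal through Myd88 to IRAK kinases, NF-kB and interferon regulatory factors, which switch on cytokines and interferons, and in tumors they are known mainly from macrophages, dendritic cells and other infiltrating leukocytes, although tumor cells can express some of them.

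The study asked how tumors in mice respond to cyclophosphamide (CPA), an alkylating drug, when it is given repeatedly at spaced intervals, and how that depends on the tumor, the host and the schedule. RNA was measured in GL261 gliomas, LLC Lewis lung carcinomas and B16F10 melanomas grown under the skin of immune competent male B6 mice (titled C57BL/6, strain label C57BL/BNTac), and in GL261 tumors of male ICR scid mice, a strain without functional T and B lymphocytes that keeps macrophages, dendritic cells and NK cells. All mice were 12 weeks old and were untreated or received CPA, at 140 mg/kg in the labels of all treated samples. The column headers of the tables give 140 mg/kg for the GL261 groups but 150 mg/kg for LLC and B16F10, and which is right was not settled. GL261(B6), LLC and B16F10 tumors were treated every 6 days (CPA/6d) and GL261(scid) tumors every 6 or every 9 days (CPA/9d), and tumors were taken 6 days after the last of 2 injections for GL261 and of 3 for LLC and B16F10. Tumor model, number of injections and, if it differed, dose therefore cannot be told apart. Each of the 9 groups was 2 pools of RNA from separate tumors, with 3 to 12 tumors in a pool and 1 library from each pool. Each tumor model is a single cell line, and the pools differ only in the animals they came from. The scid libraries were made with another kit than the B6 libraries and in mice of another strain background, so host, strain and kit cannot be told apart. The deposited values are group means, which were split into the whole reads of the 2 pools. Values below are reads after normalization to a library of 10000000 ("normalized reads"), first for the pool of a group with more reads in all and then for the pool with fewer, because the pools carry no number in the tables.

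Between 6169217 and 15979644 reads were assigned to genes in a pool. The labelled tumors were checked against lineage markers. The 4 glial markers summed to 12833 to 12989 normalized reads in untreated GL261(B6) pools and 34.0 to 49.6 in untreated LLC pools, where Omg had no reads. They summed to 5210 to 5484 in untreated B16F10 pools, nearly all from Sox10, a gene of glia and melanocytes alike, so Sox10 did not set glioma apart from melanoma. Melanocyte markers summed to 199832 to 216918 in untreated B16F10 pools and 229 to 276 in untreated GL261(B6) pools. The epithelial markers did not check the LLC label. They summed to 4898 to 5326 in untreated LLC pools, but to 1401 to 1915 in untreated GL261(B6) and 14004 to 14997 in untreated GL261(scid) pools, and Epcam stood at 2.72 and 2.83 in LLC against 388 and 392 in GL261(B6). In untreated scid tumors the T cell markers summed to 23.5 to 26.5, with no reads for Cd3d, against 212 to 217 in untreated GL261(B6) tumors. A gene is called here when its fold change was over 2 with a p under 0.001 (limma, 2 pools against 2), and adjusted p are over all genes of a comparison.

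CPA/6d increased all 10 genes in GL261(B6) tumors, where 17.8% of the 13701 genes tested were called higher. The median log2 fold change of the 10 was 2.49, with a range of 1.22 to 3.11, beside a median of −0.02 over all genes. The endosomal receptor genes Tlr9, Tlr13 and Tlr8 had the largest increases, of 8.61-fold, 8.04-fold and 7.27-fold. Tlr4, Tlr3 and Myd88 had the smallest, of 2.33-fold, 2.35-fold and 2.72-fold. In RNA of whole tumors, a change in the number of cells of a type cannot be told apart from a change in the RNA of each cell, here and in every comparison that follows.

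**Figure D1:**
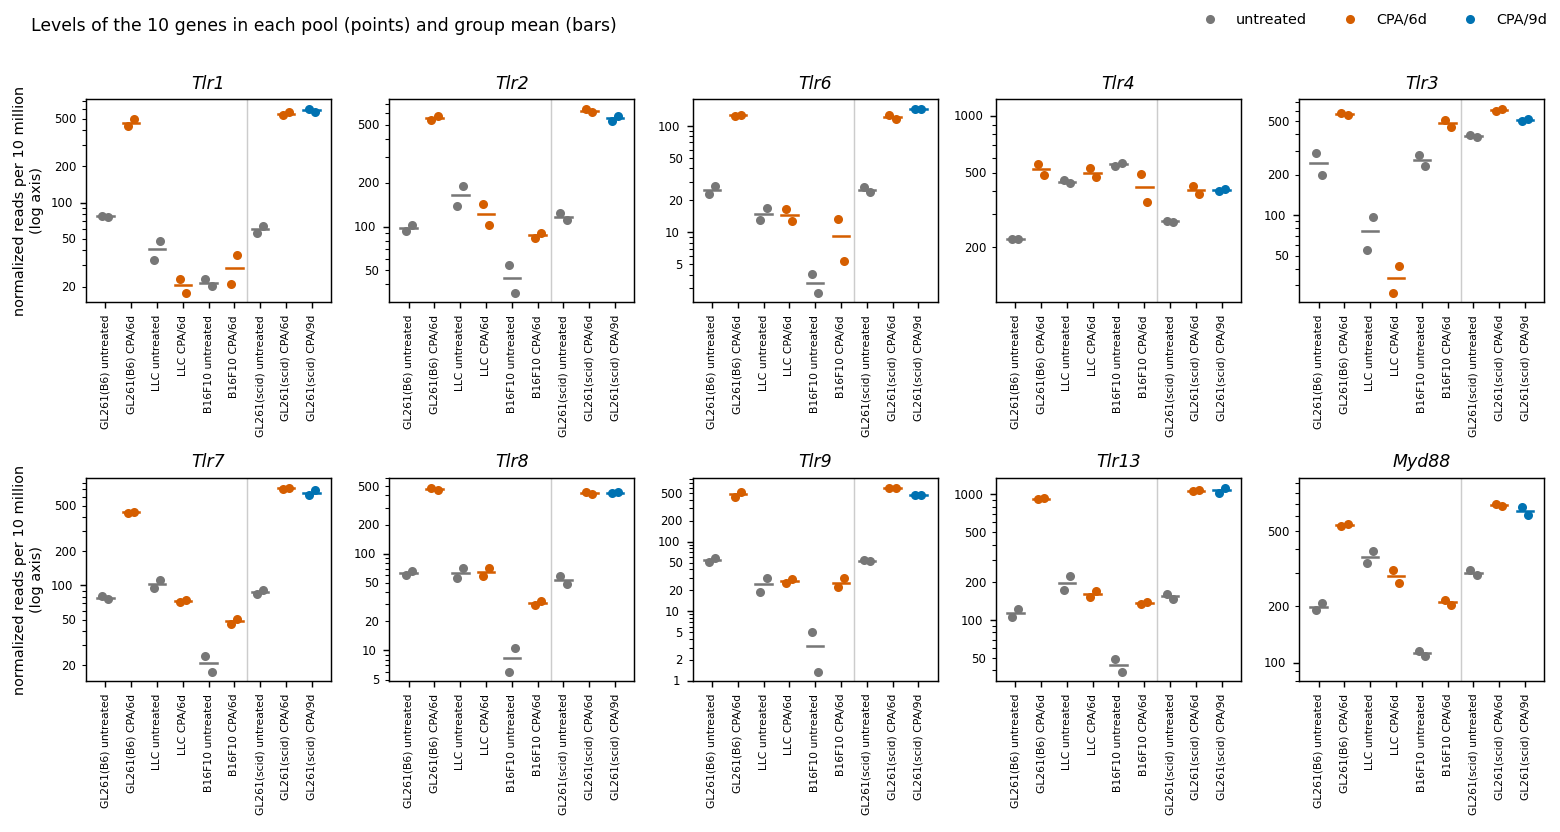
Normalized reads in a library of 10000000 (log axis) of each gene in the 9 groups, with a point for each of the 2 pools and a bar at their mean. In GL261 tumors the CPA pools stand above the untreated pools for each of the 10 genes, as for Tlr13 in B6 mice (106 and 123 untreated, 920 and 932 with CPA/6d), whereas in LLC tumors no gene was called. The share of all genes with pools apart in this way was not counted.

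Among the surface receptors, Tlr2 is the common partner of heterodimers that sense bacterial lipopeptides. It stood at 92.5 and 102 normalized reads in the untreated GL261(B6) pools and at 543 and 578 in the CPA/6d pools. The increase was 2.52 ± 0.12 in log2 (SE, adjusted p = 1.313e-09, limma), and the lowest treated pool was far above the highest untreated one. Tlr1, which pairs with Tlr2 for triacylated lipopeptides, rose from 77.9 and 76.1 to 431 and 495, by 2.57 ± 0.13. Tlr6, which pairs with Tlr2 for diacylated lipopeptides, rose from 23.1 and 27.3 to 126 in both treated pools, by 2.28 ± 0.22. Tlr2 and these partners thus rose by 5.94-fold for Tlr1, 5.72-fold for Tlr2 and 4.85-fold for Tlr6. Tlr7, which is not a partner of Tlr2, lay in the same range at 5.55-fold. Tlr4, the receptor of bacterial lipopolysaccharide, was already higher at the start, at 222 and 223. It reached 556 and 483 with CPA/6d, an increase of 1.22 ± 0.10 that was the smallest of the 10.

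Tlr1 and Tlr6 lie side by side on the minus strand of chromosome 5, Tlr1 at chr5:65316050-65324000 and Tlr6 at chr5:65344345-65351287 (mm9, the build of the deposited tables). Their transcripts share an unbroken run of 229 identical bases in the coding part, at chr5:65316776-65317004 in Tlr1 and chr5:65345067-65345295 in Tlr6. It is the longest such run, and it is shown because reads of 50 bases that fall wholly inside it cannot be assigned to either gene by their sequence. It is given 5′ to 3′ on the strand of the transcripts, with no part in capitals.
Tlr1 and Tlr6 shared run: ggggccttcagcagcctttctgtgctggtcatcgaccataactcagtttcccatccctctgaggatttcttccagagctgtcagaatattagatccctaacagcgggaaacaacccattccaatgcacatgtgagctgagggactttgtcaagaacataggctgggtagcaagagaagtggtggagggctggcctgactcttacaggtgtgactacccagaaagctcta
Of all 50-base windows of the Tlr1 transcript, 17.4% also occur in Tlr6, and of its 68-base windows 14.2%. How the authors treated reads with several matches is not given in the sources used here, so the levels of Tlr1 and Tlr6 are uncertain by the reads of all such windows, those outside the run shown included. None of the other 77 pairs among the 13 Toll-like receptor and Myd88 genes compared shared a 50-base window, and the longest run in them was 17 bases, between Tlr3 and Tlr7.

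The other genes lie apart from each other. Tlr2 is at chr3:83640195-83645689 and Tlr3 at chr8:46481019-46495962, both on the minus strand, and Tlr4 is at chr4:66488618-66591318 on the plus strand. Tlr7 (chrX:163742861-163768490) and Tlr8 (chrX:163680626-163702261) are neighbours on the minus strand of chromosome X, where Tlr13 lies at chrX:103338543-103355832 on the plus strand. Tlr9 is at chr9:106124929-106129207 on the plus strand and Myd88 at chr9:119245052-119250529 on the minus strand. An exon of Myd88 overlaps one of Acaa1a on the opposite strand by 67 bases, and no exon of the other 9 genes overlapped another gene.

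Among the endosomal receptors, Tlr9, the receptor of unmethylated CpG DNA, stood at 51.1 and 58.9 normalized reads in untreated GL261(B6) pools. It reached 446 and 517 with CPA/6d, an increase of 3.11 ± 0.14 in log2 that was the largest of the 10 (adjusted p = 1.313e-09, limma). Tlr13, a mouse receptor of bacterial ribosomal RNA, rose from 106 and 123 to 920 and 932, by 3.01 ± 0.11. It had the highest treated level of the 9 receptors also per kilobase of transcript, at 228 normalized reads per kb. Tlr8, an RNA sensor in human cells, rose from 60.8 and 66.0 to 483 and 451, by 2.86 ± 0.13. Its neighbour Tlr7, which senses single-stranded RNA, rose from 80.3 and 76.1 to 435 and 441, by 2.47 ± 0.12. Within each of these 4 genes the treated pools were close to each other and far from the untreated ones. Tlr3, which senses double-stranded RNA and signals through the adaptor Ticam1 rather than Myd88, was the most uneven of the untreated group, at 292 and 200, and stood at 582 and 558 with CPA/6d. Its increase of 1.24 ± 0.14 was no longer called without the untreated pool with fewer reads, where it was 0.96.

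Myd88, the adaptor through which all of these receptors but Tlr3 signal, stood at 190 and 207 normalized reads in untreated GL261(B6) pools and at 534 and 546 with CPA/6d. The increase was 1.44 ± 0.10 (adjusted p = 5.647e-08, limma), smaller than those of the receptors other than Tlr3 and Tlr4. Per kilobase of transcript Myd88 was nevertheless the most abundant of the 10 in both GL261(B6) groups, at 101.2 normalized reads per kb untreated and 276 with CPA/6d. Tlr3 and Tlr4 followed it in untreated tumors, at 56.8 and 54.5 per kb, but ranked 7 and 8 of 10 after CPA/6d, at 132 and 127 per kb. Tlr13 moved from rank 6, at 28.2 per kb, to rank 2, and Tlr6 was the lowest in both groups, at 9.68 and 48.3 per kb.

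Promoters of 8 of the 10 genes were available from RefSeq (GRCm38.p6), 10 sequences in all, with 250 bases before and 50 after each start, and none was used for Tlr4 and Tlr7. They were searched on both strands for 3 motifs. The myeloid ETS-type motif GAGGAAG occurred in 13.6% of all 32851 mouse promoters of this length and in 3 of these 10, those of Tlr13, Tlr9 and Tlr1. An NF-kB-type motif, GGG and TTTCC separated by any 2 bases, occurred in 1.63% of all promoters and here in that of Tlr3. An interferon-response-type motif, GAAA and GAAA separated by any 2 bases, occurred in 3.44% of all promoters and here in those of Myd88 and Tlr6. The promoters of Tlr13, Tlr9 and Tlr1, with large increases in GL261 tumors, and that of Tlr3, with a small one, are shown 5′ to 3′ on the strand of the gene, with motif matches in capitals. They are chrX:106143025-106143324, chr9:106222348-106222647, chr5:64933509-64933808 and chr8:45410331-45410630 in that order, with Tlr13 and Tlr9 on the plus strand and Tlr1 and Tlr3 on the minus strand.
Tlr13 promoter: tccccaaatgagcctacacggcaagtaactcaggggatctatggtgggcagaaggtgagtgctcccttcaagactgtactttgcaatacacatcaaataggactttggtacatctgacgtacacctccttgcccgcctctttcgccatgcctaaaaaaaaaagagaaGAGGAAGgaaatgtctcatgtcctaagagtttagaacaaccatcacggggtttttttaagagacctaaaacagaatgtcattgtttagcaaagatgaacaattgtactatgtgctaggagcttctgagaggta
Tlr9 promoter: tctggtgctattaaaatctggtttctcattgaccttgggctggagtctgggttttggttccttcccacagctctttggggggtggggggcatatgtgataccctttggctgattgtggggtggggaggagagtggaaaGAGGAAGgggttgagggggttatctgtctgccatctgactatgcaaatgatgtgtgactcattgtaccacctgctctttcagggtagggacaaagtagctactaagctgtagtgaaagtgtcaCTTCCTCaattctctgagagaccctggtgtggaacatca
Tlr1 promoter: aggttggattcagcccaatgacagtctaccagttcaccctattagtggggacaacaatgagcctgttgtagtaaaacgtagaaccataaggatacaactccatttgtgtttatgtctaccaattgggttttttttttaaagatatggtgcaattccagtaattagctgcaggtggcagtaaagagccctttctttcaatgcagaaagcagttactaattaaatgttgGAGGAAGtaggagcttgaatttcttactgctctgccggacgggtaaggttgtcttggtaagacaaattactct
Tlr3 promoter: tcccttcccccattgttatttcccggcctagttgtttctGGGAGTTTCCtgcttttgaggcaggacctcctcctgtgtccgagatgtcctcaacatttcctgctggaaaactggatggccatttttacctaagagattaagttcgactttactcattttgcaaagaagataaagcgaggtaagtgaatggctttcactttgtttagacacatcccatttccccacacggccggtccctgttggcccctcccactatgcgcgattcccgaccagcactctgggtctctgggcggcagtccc
The match of Tlr13 starts at position −83 from the gene start, that of Tlr1 at −23, and those of Tlr9 at −112 and, on the reverse strand, at 11. The match of Tlr3 starts at −211. The promoters of Tlr8 and Tlr2, which rose by 7.27-fold and 5.72-fold, held none of the 3 motifs. Tlr1 and Tlr6 each had another promoter, and it held none either. Only these 3 forms were searched, so binding sites of other forms, those of NF-kB included, would have been missed. The motifs overlap none of the others in these 4 sequences, and a match describes the sequence only.

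The other genes of the pathway were read as fixed lists. In GL261(B6) tumors 2433 of all 13701 genes tested were called higher and 889 lower, and no list was tested against these shares. Of 6 accessory genes, 5 rose in GL261(B6) tumors and none fell. They included Cd36, a scavenger receptor that assists Tlr2 and Tlr6 (3.55 ± 0.08 in log2), Cd180 and its partner Ly86, a receptor pair related to that of lipopolysaccharide (3.51 ± 0.14 and 2.58 ± 0.08), and Lbp, the lipopolysaccharide-binding protein (1.97 ± 0.15). Cd14, a co-receptor of Tlr4, changed by 0.54 ± 0.16 and was not called. Of 6 genes of endosomal transport and cleavage 3 rose, namely Unc93b1, the chaperone of the endosomal receptors (2.37 ± 0.09), and the proteases Ctss (3.53 ± 0.07) and Lgmn (2.31 ± 0.07), which cleave these receptors. Unc93b1 stood at 509 and 610 normalized reads untreated and at 2709 and 3089 with CPA/6d, with no overlap.

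Of 15 adaptors and early signaling genes 5 rose and 1 fell. The list's median log2 fold change was 0.29, beside 2.49 for the receptors and Myd88 and −0.02 over all genes. The increases included Pik3ap1, an adaptor to phosphoinositide kinases (3.17 ± 0.11), the kinase Btk (2.46 ± 0.17), Ticam2, an adaptor of Tlr4 (2.32 ± 0.20), and the kinase Irak2 (1.87 ± 0.12). Tab1, a partner of the kinase Map3k7, fell by 1.17 ± 0.07. Of 16 kinases and transcription factors 6 rose and none fell, led by the kinase Ikbke (2.73 ± 0.16) and the interferon regulatory factors Irf5 and Irf7 (2.53 ± 0.10 and 2.38 ± 0.07), with the NF-kB subunit Rel at 1.18 ± 0.17. Inhibitors rose too, 4 of the 8 tested. These were Irak3, a kinase-dead brake on Myd88 signaling (2.08 ± 0.23), the NF-kB inhibitor Nfkbia (1.46 ± 0.09), the cytokine signaling suppressor Socs1 (1.27 ± 0.11) and the ubiquitin-editing enzyme Tnfaip3 (1.10 ± 0.09).

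Cytokines and other known targets of the pathway rose in 11 of the 13 tested, and none fell. The list held 19, and the others had too few reads to be tested. Among these the pools of Il6 (4.87 and 5.74, then 6.28 and 3.60), Cxcl1 and Ifnb1 overlapped. For Il10 (3.65 and 10.05, then 11.7 and 25.2), Il12a and Cxcl2 the treated pools lay above the untreated ones. The largest changes were those of Nos2, the inducible nitric oxide synthase (4.56 ± 0.12), the cytokine Tnf (3.79 ± 0.33), the chemokine Ccl5 (3.61 ± 0.11) and the costimulatory receptor Cd40 (3.24 ± 0.18). That of Tnf rests on few untreated reads, at 6.08 and 11.5 normalized reads untreated and 111 and 150 treated. Of 8 endogenous ligands tested 5 rose and 2 fell. S100a9 and S100a8, calcium-binding proteins of neutrophils that bind Tlr4, rose by 7.17 ± 0.40 and 5.93 ± 0.24. S100a9 stood at 1.22 and 4.31 normalized reads untreated, 3 reads or fewer in a pool, and at 359 and 679 treated. S100a8 stood at 9.74 and 7.18 and then at 460 and 710. The sizes of both changes thus rest on few untreated reads. The matrix genes Bgn and Fn1 rose by 2.10 ± 0.07 and 1.78 ± 0.06. Hspd1 and Hmgb1, a mitochondrial chaperone and a chromatin protein that can act as ligands when released, fell by 1.34 ± 0.07 and 1.15 ± 0.06. These lists were chosen with results of these data known, and Cd14 was named after its value was seen.

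Markers of leukocytes moved with the receptors in GL261(B6) tumors. All 5 macrophage markers rose, and their sum went from 2776 to 3003 normalized reads in the untreated pools to 18169 to 20290 in the treated ones, with none at 0. Both monocyte markers rose (sums of 490 to 523 untreated and 3716 to 4040 treated), as did 4 of 5 conventional dendritic cell markers (572 to 579 and 4010 to 4536) and the 3 plasmacytoid dendritic cell markers tested (31.6 to 37.3 and 173 to 188). All 4 neutrophil markers analysed rose, from sums of 11.5 to 12.2, with no reads of Ngp, to 1180 to 1922, and 2 of the 4 are the ligand genes S100a8 and S100a9. The 4 T cell markers (212 to 217 and 1371 to 1686) and the 3 NK cell markers (41.6 to 42.6 and 251 to 283) rose as well. The B cell markers had too few reads to be tested, with sums of 8.52 to 15.8 and 12.0 to 12.6. The 4 glial tumor markers all fell, from sums of 12833 to 12989 to 4525 to 4769, and 1 of 2 epithelial markers tested fell (sums of 1401 to 1915 and 339 to 501). None of the 3 endothelial markers was called (940 to 954 and 1358 to 1525). The part of these cell types in the result was not tested.

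The genes were also set against the 5 macrophage markers in the same library. Such a ratio only compares a gene's increase with that of the marker sum, so it adds no evidence apart from the increases. Markers of monocytes, conventional dendritic cells, T cells and NK cells rose too. Ratios to those were not worked out, so the sets below are not shown to be particular to macrophages. For each 1000 reads of these markers the untreated and treated GL261(B6) means were 22.0 and 24.4 for Tlr8, 26.7 and 24.1 for Tlr1, 33.6 and 29.2 for Tlr2 and 27.1 and 22.8 for Tlr7. Tlr9 stood at 18.4 and 19.6 in the untreated and 24.5 and 25.5 in the treated pools, and by means Tlr13 at 39.6 and 48.3 and Tlr6 at 8.71 and 6.56. These 7 ratios thus moved far less than the levels themselves. Tlr3, Tlr4 and Myd88 had high ratios in untreated tumors, 85.8, 76.9 and 68.6, and far lower ones after CPA/6d, 29.8, 27.2 and 28.2. In GL261(scid) tumors Tlr3, Tlr4 and Myd88 again had the largest drops, and the other ratios moved less, though not all were steady. Tlr8 had 22.2 for each 1000 in untreated scid tumors, 22.9 with CPA/6d and 21.8 with CPA/9d, whereas Tlr4 had 114, 21.8 and 20.6, Tlr3 161, 32.7 and 26.2, and Myd88 125, 37.3 and 32.9. Tlr2 went from 48.3 to 33.8 and 28.3, Tlr6 from 10.4 to 6.52 and 7.42, and Tlr9 from 22.0 to 32.2 and 24.0.

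**Figure D2:**
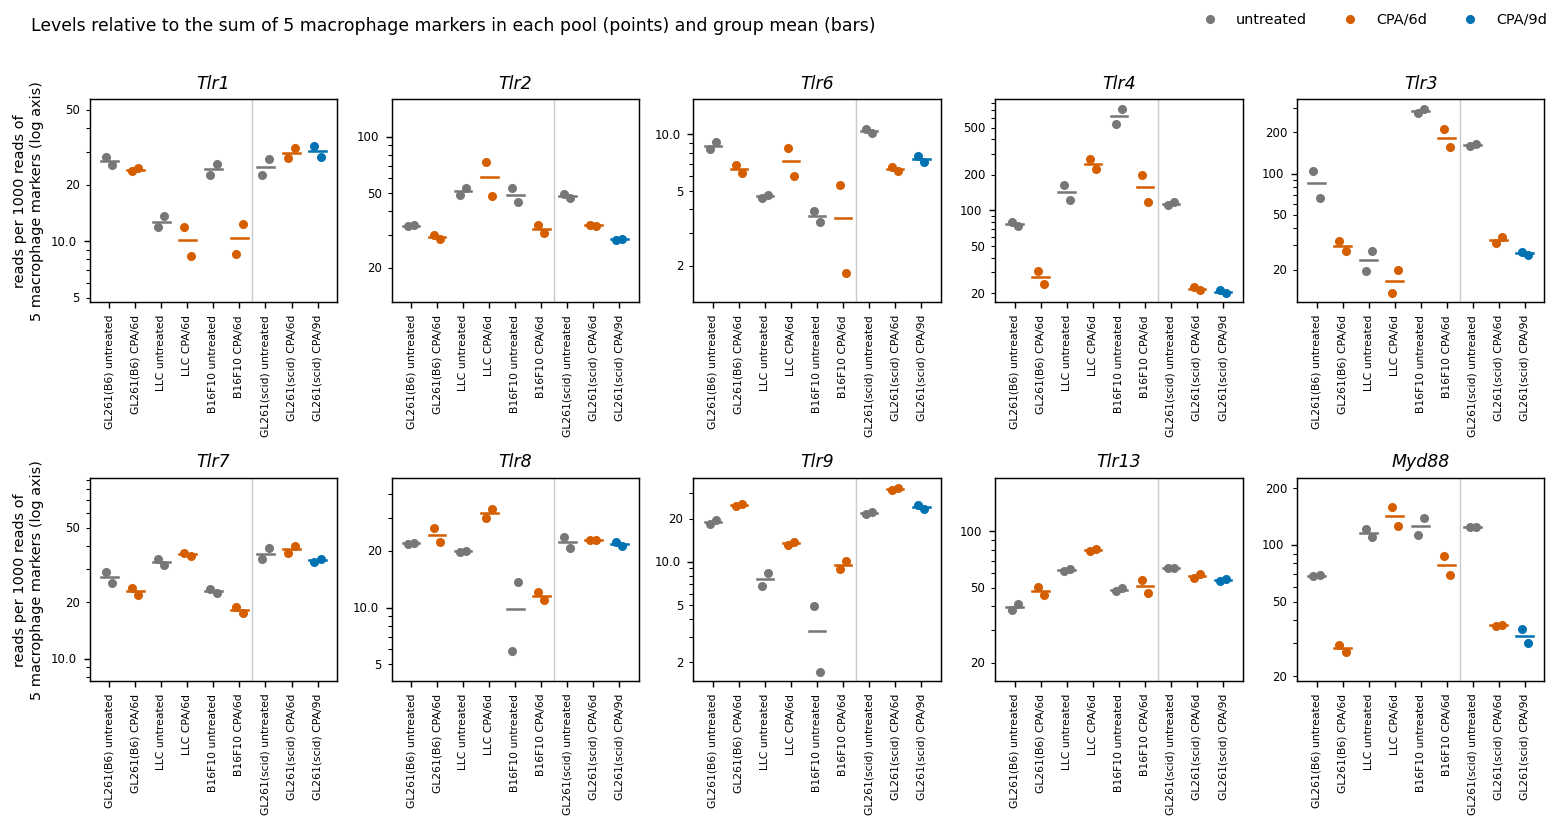
Reads of each gene for each 1000 reads of the 5 macrophage markers in the same library (log axis), with a point for each of the 2 pools and a bar at their mean. Tlr3, Tlr4 and Myd88 drop with CPA in GL261 tumors (Tlr4 in B6 mice from 76.9 to 27.2), whereas Tlr8 stays near its untreated ratio (22.0 and 24.4).

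In LLC tumors none of the 10 genes was called with CPA/6d by limma, where 2.94% of 12601 genes were called in either direction. Their median log2 fold change was −0.32, beside −0.02 over all genes. Of the 10, 4 had an unadjusted p under 0.05 (limma), all of them lower. The share of all genes with such a p was not counted. Tlr3 stood at 55.1 and 96.3 normalized reads untreated and 26.3 and 41.7 treated (−1.11 ± 0.31, adjusted p = 0.02372). Its pools did not overlap, yet the untreated pools differed from each other by nearly as much as from the treated ones. Tlr3 was called without the untreated pool with more reads (−1.51) or without the treated pool with fewer reads (−1.44). Tlr1 was lower at 23.3 and 17.7 against 33.3 and 48.1 (−0.95 ± 0.30, adjusted p = 0.04001). Tlr7 stood at 71.3 and 74.6 against 95.3 and 112 (−0.50 ± 0.17, adjusted p = 0.0524) and Myd88 at 309 and 267 against 340 and 392 (−0.35 ± 0.11, adjusted p = 0.03669). These shifts stayed under a 2-fold change for Tlr1, Tlr7 and Myd88.

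The other LLC values lay close together. Tlr2 stood at 138 and 190 normalized reads untreated and 143 and 102 treated, and its pools overlapped, as did those of Tlr6 (12.9 and 17.0, then 16.5 and 12.6), Tlr8 (55.8 and 70.8, then 58.6 and 70.8) and Tlr9 (19.1 and 29.7, then 25.5 and 29.1). Tlr13 stood at 173 and 224 untreated and 153 and 169 treated (−0.29 ± 0.14). Tlr4 was high throughout, at 458 and 437 untreated and 529 and 472 treated, and changed by 0.16 ± 0.08. Macrophage markers went from sums of 2813 to 3549 to 1948 to 2110 in these tumors, with 1 of 5 called lower, none higher and none at 0. All 3 endothelial markers fell in LLC tumors, from sums of 1581 to 1895 to 655 to 734, with none at 0. Of the neutrophil markers 1 of 3 tested rose, with sums of 583 to 776 untreated and 1100 to 2820 treated. The part of these cells in the result was not tested. For each 1000 reads of the macrophage markers Tlr4 went from 143 to 247 and Tlr8 from 19.9 to 31.8, whereas Tlr3 went from 23.4 to 16.6 and Tlr1 from 12.7 to 10.2.

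In LLC tumors the other lists held few calls. Among accessory genes Cd36 fell by 1.54 ± 0.16 and Lbp rose by 1.69 ± 0.28. None of the 6 endosomal transport genes, 15 adaptors or 16 kinases and transcription factors was called. Of them 3, 6 and 5 had an unadjusted p under 0.05 (limma), beside a share of all genes that was not counted. Among targets Nos2 rose by 1.51 ± 0.28 and Ptgs2, an inducible prostaglandin synthase, by 1.11 ± 0.19, while Cd40 fell by 2.05 ± 0.36. The phosphatase gene Dusp1 among the inhibitors and the matrix gene Vcan among the ligands rose by 1.03 ± 0.13 and 1.17 ± 0.07. Ptgs2, Dusp1 and Vcan were named after their values were seen.

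In B16F10 tumors 1 of the 9 genes tested, Tlr13, was called with CPA/6d, where 6.28% of 12492 genes were called higher. The median log2 fold change of the 9 was 0.98, beside 0.00 over all genes. Of the 9, 8 had an unadjusted p under 0.05, and the share of all genes with such a p was not counted. Tlr13 rose from 49.1 and 38.9 normalized reads to 136 and 139, by 1.63 ± 0.22 (adjusted p = 0.0005669, limma). Tlr9 stood at 5.01 and 1.34, which are 5 reads and 1 read, and at 22.1 and 29.6 with CPA/6d, or 20 and 22 reads. Its fitted change of 2.82 ± 0.61 missed the threshold (unadjusted p over 0.001, adjusted p = 0.005754) and rests on these few reads, since with 10 reads added before the log in place of 1 it was 1.45 and called. Tlr8 stood at 6.02 and 10.7 untreated and 29.8 and 32.3 treated (1.82 ± 0.44, adjusted p = 0.009304), and Tlr7 at 24.1 and 17.4 and then 46.3 and 51.2 (1.21 ± 0.32, adjusted p = 0.0142). For all 3 of these endosomal receptors the treated pools lay above the untreated ones. They were not called here, but all 3 were called with adjusted p under 0.05, and also when all 12 B6 libraries shared the estimate of the spread. Each of these settings gave 4 called genes. Of all genes, 1184 of 12492 and 1010 of 14471 were called higher under them, in that order.

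Tlr2 in B16F10 tumors stood at 54.1 and 34.9 normalized reads untreated and 83.8 and 90.2 treated (0.98 ± 0.27), and Myd88 at 115 and 109 and then 216 and 202 (0.89 ± 0.16, adjusted p = 0.002584). Tlr3 was abundant, at 280 and 232 untreated and 516 and 458 treated (0.93 ± 0.14, adjusted p = 0.001089). The last 2 passed the limit on p but stayed just under a 2-fold change. Without the untreated pool with more reads Tlr2, Tlr3 and Tlr9 were called (1.29, 1.06 and 3.50), and Tlr3 was also called without the treated pool with fewer reads (1.02). Tlr1 stood at 23.1 and 20.1 and then 21.0 and 36.3, with overlap. Tlr4 was the highest of the surface receptors, at 542 and 563 untreated and 491 and 347 treated (−0.42 ± 0.16). Tlr6 had 4 and 2 reads in the untreated pools and 12 and 4 in the treated ones, under the filter on low reads, so that a change was not testable at this depth.

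Of the markers in B16F10 tumors, 4 of 5 macrophage markers rose, with sums of 782 to 1020 untreated and 2464 to 2934 treated and none at 0. The monocyte marker tested rose too (sums of 25.5 to 59.2 and 121 to 144), and no neutrophil or endothelial marker was called (42.9 to 114 and 76.7 to 152, and 1123 to 1152 and 1095 to 1228). The part of these cells in the result was not tested. For each 1000 reads of these markers Tlr13 had 49.0 untreated and 51.1 treated and Tlr7 23.0 and 18.1, whereas Tlr4 had 626 and 159 and Tlr3 286 and 183. Tlr1 went from 24.2 to 10.4 and Myd88 from 126 to 78.3, and Tlr9 went up from 3.32 to 9.52, so the split seen in GL261 tumors was not the same here. The called genes of the pathway lists were few, where 784 of all 12492 genes were called higher and 390 lower. They were Cd180 (1.57 ± 0.31), Ctss (1.26 ± 0.14), Pik3ap1 (1.85 ± 0.25), Irf5 (1.27 ± 0.24), Irf7 (2.96 ± 0.43), Ccl5 (2.97 ± 0.22), Bgn (1.33 ± 0.09) and Fn1 (1.58 ± 0.09), which rose, and Hmgb1, which fell by 1.30 ± 0.17. No gene of the inhibitor list was called. Of the 8 tested, 4 had an unadjusted p under 0.05 (limma), beside a share of all genes that was not counted. The count of 4 alone therefore shows no shift of this list.

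**Figure D3:**
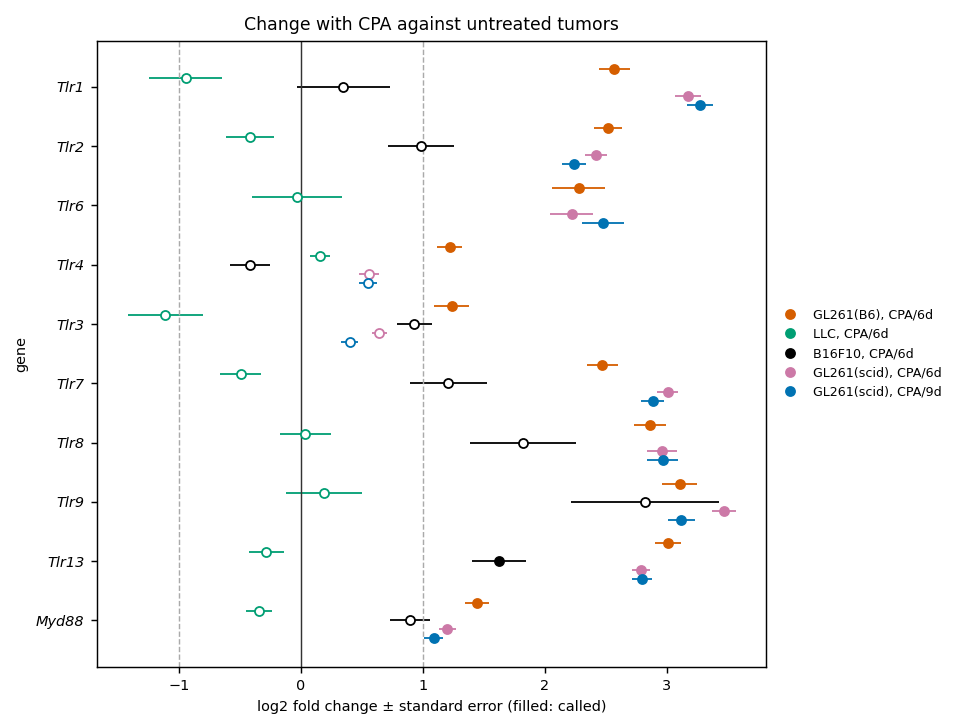
Log2 fold change with CPA against untreated tumors of the same model, with its standard error, for each gene in 5 responses. Filled points are called (fold over 2, dashed lines, and p under 0.001), and Tlr6 in B16F10 tumors is left out because it was under the filter on low reads.

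In GL261 tumors of scid mice 8 of the 10 genes rose with either schedule, where 18.3% of genes were called higher with CPA/6d and 20.0% with CPA/9d. Both schedules share the untreated pools, so the results are given side by side. The median log2 fold change of the 10 was 2.60 with CPA/6d and 2.64 with CPA/9d, beside −0.05 and −0.04 over all genes. Tlr9 rose from 54.2 and 52.0 normalized reads to 600 and 597 with CPA/6d (3.47 ± 0.10) and to 467 and 472 with CPA/9d (3.12 ± 0.11). Tlr1 rose from 56.2 and 63.9 to 531 and 566 (3.17 ± 0.11) and to 604 and 572 (3.27 ± 0.11). These were the largest increases with either schedule, 11.1-fold for Tlr9 with CPA/6d and 9.66-fold for Tlr1 with CPA/9d.

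Tlr7 in scid tumors rose from 84.9 and 90.3 normalized reads to 698 and 724 with CPA/6d and 620 and 687 with CPA/9d (3.01 ± 0.09 and 2.88 ± 0.10). Tlr8 rose from 59.4 and 48.4 to 437 and 413 and to 423 and 430 (2.96 ± 0.12 and 2.97 ± 0.13). Tlr13 rose from 161 and 149 to 1071 and 1076 and to 1027 and 1135 (2.79 ± 0.07 and 2.80 ± 0.08). The RNA and DNA sensors of the endosome, other than Tlr3, thus rose by a log2 change of 2.79 to 3.47 with CPA/6d. Tlr2 rose from 123 and 110 to 647 and 610 and to 532 and 577 (2.42 ± 0.09 and 2.24 ± 0.10), and Tlr6 from 26.8 and 23.7 to 127 and 115 and to 144 and 146 (2.22 ± 0.17 and 2.48 ± 0.17). Myd88 rose from 311 and 291 to 702 and 684 and to 672 and 610 (1.20 ± 0.07 and 1.09 ± 0.08).

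Tlr3 and Tlr4 were higher with CPA in scid tumors too, but by less than the 2-fold limit. Tlr3 stood at 395 and 382 normalized reads untreated, 592 and 621 with CPA/6d (0.64 ± 0.06, adjusted p = 5.604e-06, limma) and 503 and 523 with CPA/9d (0.40 ± 0.07, adjusted p = 0.000392). Tlr4 stood at 278 and 272 untreated, 426 and 384 with CPA/6d (0.56 ± 0.08, adjusted p = 8.879e-05) and 398 and 407 with CPA/9d (0.55 ± 0.08, adjusted p = 7.769e-05). For both genes the treated pools lay above the untreated ones, with little spread. All 5 macrophage markers rose with either schedule, from sums of 2332 to 2503 to 18142 to 19010 with CPA/6d and 18830 to 20300 with CPA/9d, with none at 0. Neutrophil markers reached 43.3 to 133 and 35.4 to 76.0 there, with 0 of 2 and 1 of 3 tested called, against 1180 to 1922 in treated GL261(B6) tumors. Both monocyte markers rose with either schedule (sums of 434 to 451 untreated, 2396 to 2475 and 2165 to 2260), and 2 of 3 NK cell markers rose. Of the dendritic cell markers, 3 and 2 of 5 conventional and 3 and 2 of 4 plasmacytoid ones rose. The conventional dendritic cell marker Xcr1 was lower instead. It stood at 139 and 155 normalized reads untreated, 105 and 103 with CPA/6d and 97.8 and 88.6 with CPA/9d. The T cell markers reached 259 to 271 and 217 to 286, nearly all of it Cd4, and the endothelial markers went from 818 to 822 to 1756 to 2034 and 2244 to 2380, with 2 and 3 of 3 called higher. All 4 glial markers and all 3 epithelial markers fell with either schedule, the glial ones from 18194 to 19983 to 6583 to 7003 and 5480 to 5567. The part of these cells in the results was not tested.

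In scid tumors the pathway lists moved as follows with CPA/6d and CPA/9d, where 1359 and 1671 of all genes were called lower. All 6 accessory genes rose with either schedule, Cd14 among them (1.85 ± 0.10 and 1.49 ± 0.10). Unc93b1 rose by 2.64 ± 0.06 and 2.73 ± 0.06 and was 1 of 3 called among 6 transport genes each time. Of 15 adaptors 4 rose with each schedule, and Tab1 stood at −0.91 ± 0.06 and −0.96 ± 0.07, under a 2-fold change. Among targets 12 of 17 tested rose with CPA/6d and 10 of 16 with CPA/9d, and Nos2 rose by 1.88 ± 0.22 and 1.59 ± 0.21. Hmgb1 fell by 1.36 ± 0.04 and 1.21 ± 0.05.

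The schedules themselves differed little in these genes. Comparing CPA/9d with CPA/6d directly, none of the 10 was called by limma, where 0.752% of genes were called in either direction. Of the 10, 3 had an unadjusted p under 0.05, and the share of all genes with such a p was not counted. Tlr9 was lower with CPA/9d by a log2 difference of −0.35 ± 0.07 (adjusted p = 0.01014), its pools at 467 and 472 against 600 and 597. Tlr3 differed by −0.24 ± 0.07 (adjusted p = 0.06111) and Tlr2 by −0.18 ± 0.07 (adjusted p = 0.1737). The other 7 differences lay between −0.12 and 0.26.

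The response of GL261(B6) tumors was larger than that of LLC tumors for all 10 genes in a direct test of the difference, where 12.7% of genes were called higher in this way. The differences in log2 were 3.52 ± 0.31 for Tlr1, 3.29 ± 0.19 for Tlr13, 2.97 ± 0.20 for Tlr7, 2.94 ± 0.26 for Tlr2, 2.92 ± 0.33 for Tlr9 and 2.83 ± 0.25 for Tlr8. They were smaller for Tlr3 (2.35 ± 0.40), Tlr6 (2.31 ± 0.39), Myd88 (1.79 ± 0.15) and Tlr4 (1.06 ± 0.13). The adjusted p lay between 2.898e-07 for Tlr13 and 0.0005322 for Tlr3. Calls of Tlr3, Tlr4 and Tlr6 were lost in some fits with a single pool left out. The differences of Tlr3 and Tlr6 stayed over the 2-fold limit there and missed the limit on p, whereas that of Tlr4 fell under the 2-fold limit. Tlr3 was not called without the untreated pool of GL261(B6) with fewer reads (2.08) or without either of its treated pools (2.32 and 2.38). Tlr4 was not called without the treated GL261(B6) pool with more reads (0.96) or the treated LLC pool with fewer reads (0.98), and Tlr6 was not called without either treated GL261(B6) pool (2.32 and 2.31).

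Against B16F10 tumors the GL261(B6) response was larger for 4 of the 10 genes, where 6.28% of genes were called higher. These were Tlr1 (2.23 ± 0.37), Tlr4 (1.64 ± 0.21), Tlr2 (1.53 ± 0.30) and Tlr13 (1.38 ± 0.22). For the endosomal receptors the differences were 1.26 ± 0.29 for Tlr7, 1.04 ± 0.38 for Tlr8, 0.31 ± 0.24 for Tlr3 and 0.28 ± 0.57 for Tlr9, with adjusted p of 0.00883 to 0.7284. The count depended on the setting. With 10 reads added before the log 8 genes were called, Tlr6 (1.45), Tlr7 (1.405), Tlr8 (1.53) and Tlr9 (1.47) among them. Of all 14211 genes 1392 were then called higher. Tlr6, Tlr8 and Tlr9 had 4 and 2, 6 and 8, and 5 and 1 reads in the untreated B16F10 pools. The added reads took the change of Tlr9 in B16F10 tumors from 2.82 to 1.45, so the calls of these genes rest on few reads. With adjusted p under 0.001 Tlr4 alone was called, beside 541 of all genes called higher. Tlr4 remained called whichever pool was left out, whereas Tlr1 and Tlr2 were lost without any single GL261(B6) pool (2.13 to 2.33 for Tlr1 and 1.46 to 1.60 for Tlr2). Tlr2 was also lost without either treated B16F10 pool (1.48 and 1.59). Tlr13 was lost without the untreated GL261(B6) pool with more reads (1.27) and without either treated one (1.39 and 1.37), and Tlr7 was called without the untreated B16F10 pool with fewer reads (1.48).

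Between the responses of B16F10 and LLC tumors, 4 of the 10 genes differed, where 5.05% of genes were called higher in B16F10. The differences were 2.04 ± 0.40 for Tlr3, 1.91 ± 0.26 for Tlr13, 1.70 ± 0.33 for Tlr7 and 1.24 ± 0.19 for Myd88. Tlr4 went the other way, at −0.58 ± 0.21 (adjusted p = 0.05532). Tlr13 and Myd88 were called whichever pool was left out. Tlr3 was not called in 6 of the 8 fits without a single pool (1.65 to 2.18), those without the untreated LLC pool with fewer reads, the treated LLC pool with more reads or any B16F10 pool. Tlr7 was not called in 7 of the 8 (1.48 to 1.82), the exception being the fit without the untreated B16F10 pool with more reads. Without that pool Tlr9 was called (3.32), and without the other untreated B16F10 pool Tlr8 was (2.16).

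Between hosts, none of the 10 responses of GL261 tumors to CPA/6d differed past the threshold by limma, where 2.26% of genes did in either direction and the median over all genes was 0.10. Of the 10, 5 had an unadjusted p under 0.05, beside a share of all genes that was not counted. The increase was larger in B6 mice by 0.66 ± 0.13 for Tlr4 (adjusted p = 0.00495), by 0.59 ± 0.19 for Tlr3 (adjusted p = 0.05019) and by 0.24 ± 0.11 for Myd88 (adjusted p = 0.1485). It was larger in scid mice for Tlr1 (−0.60 ± 0.16, adjusted p = 0.02538) and Tlr7 (−0.54 ± 0.13, adjusted p = 0.01815). Each of these was under a 2-fold difference, and host, strain background and kit cannot be told apart in them.

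**Figure D4:**
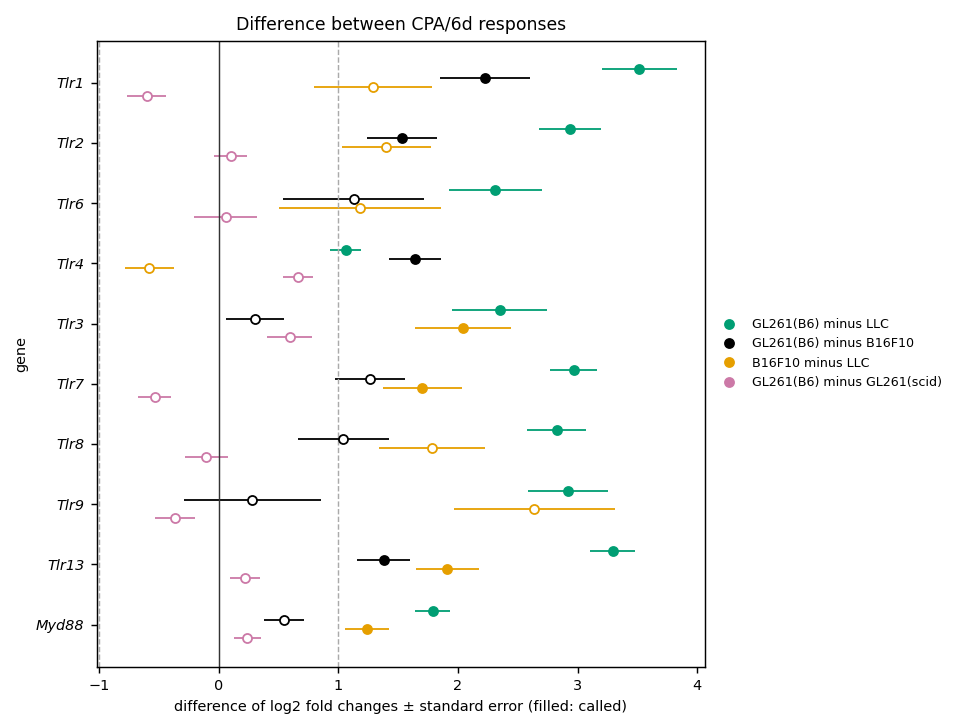
Difference between the log2 fold changes with CPA/6d of a pair of tumor models, with its standard error, for each gene. Filled points are called (2-fold, dashed lines, and p under 0.001), and all 10 are called for GL261(B6) minus LLC (1.06 for Tlr4 to 3.52 for Tlr1) whereas none is for GL261(B6) minus GL261(scid).

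The 3 further receptors of the family in the tables, Tlr5, Tlr11 and Tlr12, were read as a list of their own. Tlr5, the receptor of bacterial flagellin, stood at 14.6 and 8.61 normalized reads in untreated GL261(B6) pools and at 37.7 and 38.4 with CPA/6d (1.67 ± 0.36). Tlr11, which senses profilin of protozoa in mice, stood at 9.74 and 5.74 and then at 64.6 and 88.7 (3.17 ± 0.35). Tlr12, its partner in that role, stood at 51.1 and 45.9 and then at 266 and 301 (2.52 ± 0.16). All 3 rose in GL261(B6) tumors with no overlap of the pools, and all 3 rose in GL261(scid) tumors, by 2.81 ± 0.26, 1.87 ± 0.41 and 2.82 ± 0.31 with CPA/6d and by 2.73 ± 0.27, 2.02 ± 0.41 and 2.99 ± 0.32 with CPA/9d. In LLC tumors Tlr5 stood at 48.3 and 41.1 untreated and 51.1 and 44.3 treated (0.09 ± 0.23). Tlr11 and Tlr12 had at most 1 read in any LLC pool. In B16F10 tumors Tlr5 had 2 reads in each untreated pool and 13 and 21 in the treated ones (2.67 ± 0.60, adjusted p = 0.00681), which was not called, and Tlr12 stood at 16.04 and 16.1 untreated and 12.1 and 8.08 treated (−0.65 ± 0.46).

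The models were also compared before treatment. Between untreated GL261(B6) and LLC tumors 2 of the 10 genes were called, where 31.4% of all genes were called in either direction. Tlr3 was higher in GL261(B6), at 292 and 200 normalized reads against 55.1 and 96.3 (1.71 ± 0.29), and Tlr4 was lower, at 222 and 223 against 458 and 437 (−1.01 ± 0.09). Tlr4 was close to the 2-fold limit and was not called with size factors by the median of ratios (−0.93) or without the untreated LLC pool with more reads (−0.98). Myd88, Tlr13 and Tlr2 stood lower in GL261(B6) by −0.88 ± 0.11, −0.78 ± 0.17 and −0.73 ± 0.19, and Tlr9 higher by 1.17 ± 0.29, none of them called. Without the untreated LLC pool with fewer reads Tlr1 and Tlr9 were called (1.18 and 1.48).

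Compared with untreated B16F10 tumors, untreated GL261(B6) tumors had 6 genes higher and 1 lower, where 36.2% of all genes were called in either direction. The higher ones were Tlr9 (3.90 ± 0.50), Tlr8 (2.83 ± 0.35), Tlr6 (2.60 ± 0.39), Tlr7 (1.88 ± 0.27), Tlr1 (1.79 ± 0.25) and Tlr13 (1.37 ± 0.22). For Tlr9 this compared 42 and 41 reads with 5 and 1, and for Tlr6 19 and 19 with 4 and 2. Tlr4 was lower in GL261(B6) (−1.31 ± 0.10), and Tlr3 differed by −0.08 ± 0.20. Without either untreated GL261(B6) pool 4 genes were called, since Tlr6, Tlr8 and Tlr9 were then under the filter on low reads, and without the untreated B16F10 pool with more reads Tlr2 was called too (1.45).

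After CPA/6d the models differed in more of the genes, but not in Tlr4. GL261(B6) tumors exceeded LLC tumors in 8 of 10 genes, where 22.7% of all genes were called higher, by 4.44 ± 0.19 for Tlr1, 4.09 ± 0.16 for Tlr9 and 4.06 ± 0.22 for Tlr3 down to 2.20 ± 0.16 for Tlr2. Myd88 was 0.91 ± 0.09 higher and not called, except without the treated LLC pool with more reads (1.01). Tlr4 was at about the same level in the 2 models, 556 and 483 against 529 and 472 normalized reads (0.05 ± 0.10). GL261(B6) tumors exceeded B16F10 tumors in 8 of 10 genes as well, where 23.3% of all genes were called higher, from 4.18 ± 0.20 for Tlr9 to 1.37 ± 0.11 for Myd88. Here the exceptions were Tlr3 (0.23 ± 0.10) and Tlr4 (0.33 ± 0.18).

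The order of the 6 groups of B6 mice by mean level had treated GL261(B6) tumors at the top for 9 of the genes. For Tlr4 untreated B16F10 tumors came highest, with pools that overlapped those of treated GL261(B6), which overlapped those of treated LLC, and untreated GL261(B6) tumors came lowest. Treated LLC tumors were at the lower end for Tlr1 and Tlr3, and untreated B16F10 tumors for the other 7. For Tlr1 the LLC and B16F10 groups formed one overlapping series from 17.7 to 48.1 normalized reads. For Tlr8 treated LLC, untreated GL261(B6) and untreated LLC overlapped, at 55.8 to 70.8. For Tlr9 treated LLC, treated B16F10 and untreated LLC overlapped, at 19.1 to 29.7. Tlr3 and Tlr4 were thus the genes whose order differed most from the rest, with B16F10 tumors, treated or not, at 232 to 516 for Tlr3 and 347 to 563 for Tlr4.

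Over the 12 libraries of B6 tumors Tlr3 and Tlr4 again stood apart, whereas Myd88 went with the other receptors. As a description over libraries that share tumor models and treatments, the log2 levels of Tlr1, Tlr2, Tlr6, Tlr7, Tlr8, Tlr9, Tlr13 and Myd88 correlated with each other at r = 0.67 (Tlr1 and Myd88) to 0.98 (Tlr2 and Tlr13). Tlr4 had r of −0.17 to 0.16 with the other 9, and Tlr3 had r of −0.12 to 0.52. The genes with the most similar pattern, 3 for each of 9 members among 11457 with a mean of at least 50 normalized reads, included known leukocyte genes. They were Pik3cg, Tep1 and Lfng for Tlr7 (r of 0.99 to 1.00), Fcgr2b, Lpxn and Rassf5 for Tlr8 (0.99) and Bcl2a1b, Csf2rb2 and Slfn2 for Tlr9 (0.99). Plek, Cd53 and C3ar1 were nearest to Tlr13 (0.99), Aif1, H2-Q6 and Lair1 to Tlr1 (0.98 to 0.99) and Apobec1, Pik3cg and Sfpi1 to Tlr2 (0.98 to 0.99). Evi2a, Clec4n and Alox5ap were nearest to Myd88 (0.99), Papln, Dsel and Cd72 to Tlr3 (0.97 to 0.98) and Gnaq, Enc1 and Ppp1r2 to Tlr4 (0.93 to 0.95). The nearest genes of Tlr4 were thus less close to it than those of the other 8 members given here.

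**Figure D5:**
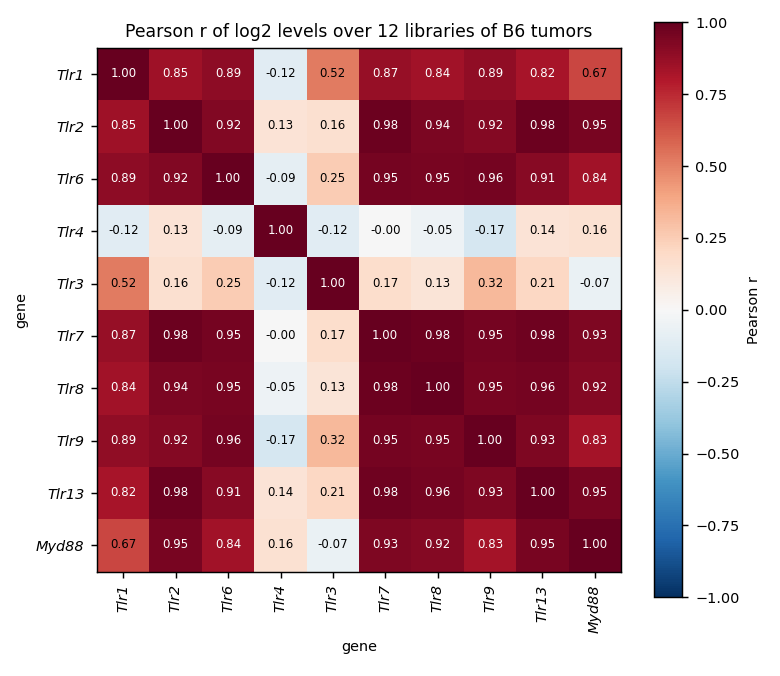
Pearson r of log2 normalized reads between each pair of genes over the 12 libraries of B6 tumors (colour from −1 to 1). A block of 8 genes has r of 0.67 to 0.98, whereas Tlr4 (−0.17 to 0.16) and Tlr3 (−0.12 to 0.52) stand apart.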

How the data were processed

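Pooled tumor RNA was sequenced in 18 libraries, 2 for each of 9 groups, with single-end reads of 50 or 68 bases. Per the labels and the study's methods, the authors mapped reads with TopHat2 (2.0.13) to mm9 and counted RefSeq genes, and DESeq divided the counts by size factors. How reads with several matches were treated and which strand was counted are not given in the sources used here. The 10 deposited tables held signal values that the authors made as the mean normalized reads of a group of 2 pools. Their ratio, fold change and p-value columns were the authors' own comparisons and were not used. Pools carry no number in the tables, and p-values measure only the spread between pools.

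Each group mean was split into whole reads of its 2 pools. The split had a single solution for 100% of genes with reads, and wherever a single table was enough for it, that table gave the same reads. The pools of a group are told apart only by total reads. Log2 values of TMM-normalized reads (1 read added to reads in a library of 10000000, B6 and scid libraries scaled separately) were fitted with limma (3.58.1, R 4.3.3, with a mean trend), which differs from the authors' count test. Each comparison used its 4 libraries, and a difference of responses an interaction over 8. Genes needed 10 reads at the median depth in 2 libraries and 15 in all. Calls needed a fold change over 2 and p under 0.001, and adjusted p are Benjamini-Hochberg values over all genes tested. Standard errors are given after ±. The steps were tested on simulated data. A count of 3 reads, the limit that 0 reads allows, stands for 1.96 to 4.31 normalized reads in a pool, for counting error only.

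All 10 members are named in each response to CPA and in the difference of responses between GL261(B6) and LLC tumors. The other comparisons name only some of them. Up to 4 genes are named from each list, those with the largest changes among the called in GL261(B6) tumors. The members and lists were chosen with earlier results of these data known. Alternatives were 10 or 0.5 reads added, size factors by the median of ratios, no filter, adjusted p under 0.05 or 0.001, all libraries of a kit in the fit, and each pool left out. The genes with the pattern most similar to Tlr6 are not reported here.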

Additional observations from a re-analysis of the deposited data

Results flagged for a closer look

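Responses to CPA/6d that differed between tumor models in the interaction test are collected here as log2 differences, with no explanation weighed. GL261(B6) tumors exceeded LLC tumors by 3.52 for Tlr1, 2.94 for Tlr2, 2.35 for Tlr3, 1.06 for Tlr4, 2.31 for Tlr6, 2.97 for Tlr7, 2.83 for Tlr8, 2.92 for Tlr9, 3.29 for Tlr13 and 1.79 for Myd88. They exceeded B16F10 tumors by 2.23 for Tlr1, 1.53 for Tlr2, 1.64 for Tlr4 and 1.38 for Tlr13. B16F10 tumors exceeded LLC tumors by 2.04 for Tlr3, 1.70 for Tlr7, 1.91 for Tlr13 and 1.24 for Myd88. The same GL261(B6), LLC and B16F10 pools enter several of these differences, so they are not independent of each other. With 2 pools a group, no group was tested for a pool far from the rest.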

How the results depend on the processing

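No paired analysis was possible because the group means carry no pool numbers. Of 98 counts of called members under other settings 86 stayed within 1.5 times the original, and of 973 values of single members 940 kept their side of the threshold and none reversed. With adjusted p under 0.05 the count in LLC tumors was 1, in B16F10 tumors 4 and for B16F10 against LLC responses 7. With adjusted p under 0.001 the count for untreated GL261(B6) against LLC was 1, for GL261(B6) against B16F10 responses 1 and for B16F10 against LLC responses 1. Beside these, 2186 of 13174 genes were called higher and 1773 lower, 541 of 14211 higher and 348 of 13432 higher, in that order. With 10 reads added the count was 2 in B16F10 tumors, 1 for untreated GL261(B6) against LLC and 8 for GL261(B6) against B16F10 responses. Beside these, 795 of 12492 genes were called higher, 2336 of 13174 higher and 1847 lower, and 1392 of 14211 higher, in that order. Without a filter the count was 2 in B16F10 tumors, with all libraries of the kit 4 there, and with the median of ratios 1 for untreated GL261(B6) against LLC. Beside these, 832 of 17382 and 1010 of 14471 genes were called higher, and 2449 of 13222 higher and 1668 lower, in that order. The cause of these changes was not tested.

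With each pool left out in turn the count ranged from 9 to 10 in GL261(B6), 0 to 1 in LLC and 1 to 4 in B16F10 tumors, and was 8 each time in GL261(scid) tumors with either schedule. It ranged from 1 to 4 for untreated GL261(B6) against LLC, 4 to 8 for untreated GL261(B6) against B16F10, 7 to 10 for GL261(B6) against LLC responses, 1 to 5 for GL261(B6) against B16F10 responses and 2 to 4 for B16F10 against LLC responses. In such fits the lone pool of a group is assumed to vary like the others.

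The use of 2 pools a group, unknown pool numbers, a kit and strain that go with the host, and injections that go with the tumor model limit all comparisons. Few reads limit Tlr6, Tlr8 and Tlr9 in B16F10 tumors, and shared sequence limits Tlr1 and Tlr6.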
